A study of Mus musculus with 26 samples.

Results

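The genes described here are 40 genes of DNA replication and the S phase, the part of the cell cycle in which the genome is copied. They were listed by function, by a rule that uses no measured value but was made with earlier results of these data known, and all 40 were found as single rows among the 52609 gene rows (52454 gene symbols) of the expression table. They fall into 9 roles: origin recognition and licensing (*Orc1*, *Orc6*, *Cdc6*, *Cdt1*), the MCM2-7 helicase (*Mcm2* to *Mcm7*), helicase activation (*Cdc45*, *Gins1* to *Gins4*, *Mcm10*), polymerases and primase (*Pola1*, *Pola2*, *Prim1*, *Prim2*, *Pold1*, *Pold2*, *Pole*, *Pole2*), clamp and clamp loader (*Pcna*, *Rfc2* to *Rfc5*), single-strand binding (*Rpa1*, *Rpa2*), Okazaki fragment joining (*Lig1*, *Fen1*), nucleotide supply (*Rrm1*, *Rrm2*, *Tyms*, *Tk1*) and G1/S regulators (*Ccne1*, *Ccne2*, *E2f1*).

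In G1, the origin recognition complex, CDC6 and CDT1 load the MCM2-7 ring onto DNA. Cyclin E with its kinase, and another kinase then turn the ring into an active helicase with CDC45 and GINS, and polymerases α, δ and ε copy both strands behind it. Most of these genes are transcribed towards the G1/S boundary under E2F factors, so their RNA is abundant in tissues with many dividing cells and low in resting ones.

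Expression was measured by RNA-seq in 10 libraries, with 1 library per group. Differences between 2 libraries therefore have no replicate error and no test, and a test was run only on GSK126 over both genotypes and on liver against heart over both genotypes. Mouse embryonic fibroblasts (MEFs) at passage 1 from E14.5 male C57BL6 embryos, offspring of *Dnmt3a* heterozygous KO mice and labelled *Dnmt3a* WT or *Dnmt3a* KO, were each kept with the solvent DMSO or with 10 µM of GSK126, an inhibitor of the histone H3K27 methyltransferase EZH2, for 2 days. Heart and liver came from E14.5 male C57BL6 embryos labelled WT or *Dnmt3a* KO, and the heart and liver of each genotype carry the same number in their labels. The 2i-MEFs, at passage 1 from E14.5 and labelled *Dnmt3a* KO or *Dnmt3b* KO, came from chimeras made with female F1 (129X1/SvJ and MSM/Ms) ES cells kept in 2i medium and edited by CRISPR/Cas9, and host cells were removed by selection and sorting; no WT 2i-MEF library was analysed here. FPKM (fragment counts divided by transcript length and by the total mapped in that library) is a level per length, and all ratios below are log2 ratios of FPKM + 1. A ratio past 1.5-fold in either direction (0.58 on this scale) was counted as higher or lower, and beside each count stands the share of all genes averaging 1 FPKM or more over both libraries that passed the same limit.

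The estimated depth was 9.20e+06 to 2.62e+07 mapped reads. *Dnmt3a*, the gene targeted in 5 of the 10 groups, was at 26.1 and 19.3 FPKM in WT MEFs but at 85.7 and 84.5 FPKM in MEFs labelled *Dnmt3a* KO, and at 55.0 FPKM in WT heart but 125 FPKM in heart labelled KO, against 53.5 FPKM in WT liver and 12.7 FPKM in liver labelled KO, and, for 2i-MEFs, 4.21 FPKM where *Dnmt3a* and 23.9 FPKM where *Dnmt3b* was knocked out. The *Dnmt3a* level thus goes against the label in MEFs and heart but not in liver or 2i-MEFs. Whether transcript remains after the deletion or labels were exchanged was not tested, and every direction given below between the genotypes in MEFs and heart rests on these labels. Summed levels of 5 macrophage markers were 849 to 1222 FPKM in the 4 MEF libraries and 12.4 to 19.3 FPKM in the 2i-MEF libraries, so macrophage marker RNA was present in the MEF libraries. Fibroblast markers (10 genes) summed to 6326 to 12371 FPKM in MEFs and 19861 to 21139 FPKM in 2i-MEFs, cardiomyocyte markers (8 genes) to 55278 FPKM in WT heart and 51989 FPKM in heart labelled KO, and hepatocyte markers (8 genes) to 24526 FPKM in WT liver and 14915 FPKM in liver labelled KO. In bulk samples, fewer cells of a type and less RNA per cell cannot be told apart.

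The promoters are shown first because E2F factors are the textbook link between these genes. The promoter table (RefSeq, GRCm38.p6, 250 bases before to 50 after each start) holds 32 of the 40 genes; *Mcm4*, *Gins1*, *Gins2*, *Gins4*, *Rfc2*, *Prim2*, *Pole* and *Ccne2* have no entry. Of the 32 genes, 13 (40.6%) hold at least 1 of the E2F letters TTTCCCGC or TTTCGCGC or TTTGCCGC or TTTGGCGC on either strand, against 2.60% of all 27025 genes in the table. These are *Cdc6*, *Cdt1*, *Gins3*, *Lig1*, *Mcm3*, *Mcm5*, *Mcm6*, *Mcm7*, *Orc1*, *Pola1*, *Pold1*, *Pole2* and *Rfc3*, from 6 of the 9 roles. CCAAT, the letters bound by NF-Y, stood in 19 of 32 (59.4%) against 41.1% of all genes, and TTTGAA, the letters of the cell cycle homology region of late cell cycle genes, in 5 of 32 (15.6%) against 20.2%. A match is a description of letters and was not tested as a site.

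The 170 bases before the RefSeq start are given for *Mcm5*, *Mcm6* and *Pola1*, which hold E2F letters there, and for *Mcm2* and *Mcm10*, which hold none, with E2F letters (8 bases, some overlapping) and CCAAT in capitals, on either strand, 5′ to 3′ on the strand of the gene.
*Mcm6* (chr1:128359706-128359875, minus strand): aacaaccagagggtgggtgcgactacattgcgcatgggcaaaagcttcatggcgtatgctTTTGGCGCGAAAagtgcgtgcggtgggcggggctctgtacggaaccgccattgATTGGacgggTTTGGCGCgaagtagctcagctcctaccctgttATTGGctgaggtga
*Mcm5* (chr8:75109339-75109508, plus strand): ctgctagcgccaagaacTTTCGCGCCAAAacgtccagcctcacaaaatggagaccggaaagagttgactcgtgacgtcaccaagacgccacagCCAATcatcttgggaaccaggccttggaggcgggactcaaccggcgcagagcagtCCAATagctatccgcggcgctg
*Pola1* (chrX:93632156-93632325, minus strand): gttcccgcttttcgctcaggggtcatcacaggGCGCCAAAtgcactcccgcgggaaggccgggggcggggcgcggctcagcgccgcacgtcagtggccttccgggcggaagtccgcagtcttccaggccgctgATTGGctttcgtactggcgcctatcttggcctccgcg
*Mcm10* (chr2:5012792-5012961, minus strand): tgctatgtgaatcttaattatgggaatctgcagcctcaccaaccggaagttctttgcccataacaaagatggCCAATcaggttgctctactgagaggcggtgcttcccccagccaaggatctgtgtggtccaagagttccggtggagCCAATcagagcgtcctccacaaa
*Mcm2* (chr6:88898781-88898950, minus strand): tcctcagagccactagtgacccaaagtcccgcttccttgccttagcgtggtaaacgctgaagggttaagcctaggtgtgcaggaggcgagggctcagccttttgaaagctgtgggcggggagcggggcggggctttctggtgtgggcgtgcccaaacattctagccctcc
*Mcm6* carries 3 E2F matches at 110 to 103, 106 to 99 and 47 to 40 bases before the start, the first 2 on opposite strands and sharing letters. *Mcm5* carries 2 that overlap, at 153 to 146 and 149 to 142 bases, and *Pola1* carries 1 at 138 to 131 bases. CCAAT occurs in pairs in these windows of *Mcm5*, *Mcm6* and *Mcm10*, singly in *Pola1* and not in *Mcm2*.

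With GSK126, most of the replication genes were lower than with DMSO in both genotypes, by small amounts. In WT MEFs 33 of 40 were lower by any amount, against 49.8% of all genes, and in MEFs labelled *Dnmt3a* KO 35 of 40 were lower, against 54.6%. Their median log2 ratio was -0.23 in WT and -0.37 in the KO-labelled MEFs, where the median of all genes was 0.0017 and -0.04. Together, 30 genes were lower in both genotypes, against 29.8% of all genes. The summed level of the 40 genes went from 762 to 621 FPKM in WT and from 669 to 538 FPKM in KO-labelled MEFs, and none of the 40 differed as much as 2-fold in FPKM + 1 in either genotype. A limma fit was made over the 4 MEF libraries with the genotype label as a block. Its error joins the difference between the genotypes' ratios, with 1 residual degree of freedom, and a variance shared over all genes, with 3.65. In this fit 0 of the 40 genes passed a Benjamini-Hochberg adjusted p of 0.05 in either direction. Of 13192 genes tested, 1 was higher (0.00758%) and 1 lower (0.00758%). At an unadjusted p under 0.05, 9 of the 40 were lower (4.30% of all genes) and 0 higher (3.78%), and the smallest limma adjusted p was 0.338, for *Mcm6*. The lower levels of the 40 genes with GSK126 are therefore values of these libraries that did not pass a test gene by gene.

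**Figure D1:**
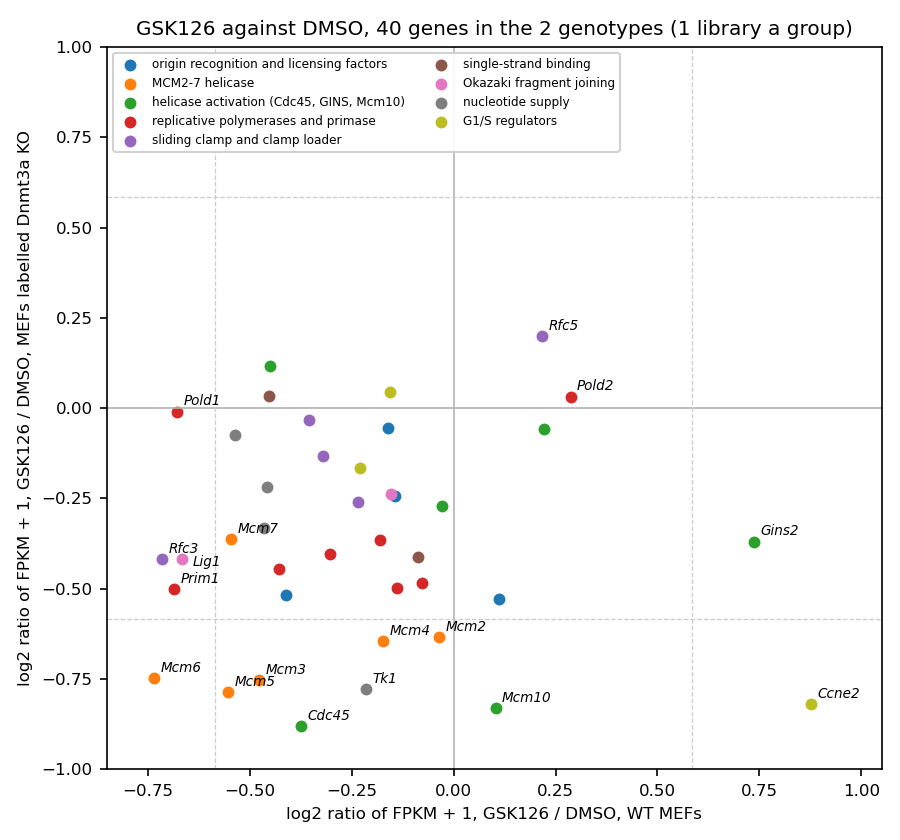
Each point is 1 of the 40 genes, with the log2 ratio of FPKM + 1 for GSK126 against DMSO in WT MEFs on the x axis and in MEFs labelled *Dnmt3a* KO on the y axis; colours give the role, grey lines 0 and dashed lines 1.5-fold. Most points, 30 of 40, lie in the lower left part, and *Gins2* and *Ccne2* lie far to the right and below 0.

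Past 1.5-fold, 5 genes were lower in WT MEFs (background 4.60%) and 2 were higher (5.48%). The 5 were *Mcm6*, *Rfc3*, *Prim1*, *Pold1* and *Lig1*, and the 2 were *Ccne2* and *Gins2*. In KO-labelled MEFs 9 genes were lower (9.56%) and 0 higher (5.45%): *Mcm2*, *Mcm3*, *Mcm4*, *Mcm5*, *Mcm6*, *Cdc45*, *Mcm10*, *Tk1* and *Ccne2*. The background's floor of 1 FPKM was met by 40 of the genes in the WT pair and by 39 in the KO-labelled pair (not *Gins3*). On this scale *Mcm6* alone passed the limit downwards in both genotypes, where 1.28% of all genes did. The pseudocount decides this, since ratios of FPKM itself passed 1.5-fold downwards in both for 4 genes (2.41% of all genes), *Mcm6*, *Orc1* (1.76-fold and 1.91-fold lower in WT and KO-labelled MEFs), *Prim1* (1.74-fold and 1.51-fold) and *Mcm5* (1.503-fold and 1.81-fold). The 2 comparisons share no library.

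The MCM2-7 genes, which encode the 6 subunits of the replicative helicase, were lower with GSK126 for all 6 genes in both genotypes. *Mcm6* (ENSMUSG00000026355.11, chr1:128331590-128359664) stood at 41.7 FPKM in WT MEFs under DMSO and 24.6 FPKM under GSK126, and at 27.0 and 15.7 FPKM in KO-labelled MEFs. The 95% counting intervals were 39.9 to 43.5, 23.3 to 26.0, 25.8 to 28.3 and 14.7 to 16.7 FPKM, and its log2 ratios were -0.74 and -0.75. *Mcm6* was lower with GSK126 by nearly the same ratio in either genotype, and lower in KO-labelled than in WT MEFs within each treatment, by 0.61 and 0.62 on the log2 scale.

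*Mcm5* went the same way, at 19.8 and 13.2 FPKM in WT and 15.8 and 8.73 FPKM in KO-labelled MEFs (log2 ratios -0.55 and -0.79). *Mcm3* was at 26.9 and 19.1 FPKM in WT and 22.04 and 12.7 FPKM in KO-labelled MEFs (-0.48 and -0.75). *Mcm7* was at 33.2 and 22.4 FPKM in WT and 29.2 and 22.5 FPKM in KO-labelled MEFs (-0.55 and -0.36). These 3 subunits were lower with GSK126 in either genotype, and *Mcm7* ended at about the same level in both. *Mcm2* and *Mcm4* had larger ratios in the KO-labelled MEFs, a difference that was not tested. *Mcm2* was at 34.1 and 33.2 FPKM in WT MEFs but 34.2 and 21.7 FPKM in KO-labelled MEFs (-0.03 and -0.63). *Mcm4* was at 15.4 and 13.6 FPKM in WT and 15.9 and 9.80 FPKM in KO-labelled MEFs (-0.17 and -0.65). Counting intervals of *Mcm4* on its shortest transcript overlap within either genotype, at 11.8 to 19.8 and 10.2 to 17.4 FPKM in WT and 12.9 to 19.6 and 7.23 to 13.2 FPKM in KO-labelled MEFs. Of the 6 fibroblast libraries, the KO-labelled MEFs with GSK126 were the lowest for all of these genes but *Mcm7*, whose lowest value was in WT MEFs with GSK126.

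**Figure D2:**
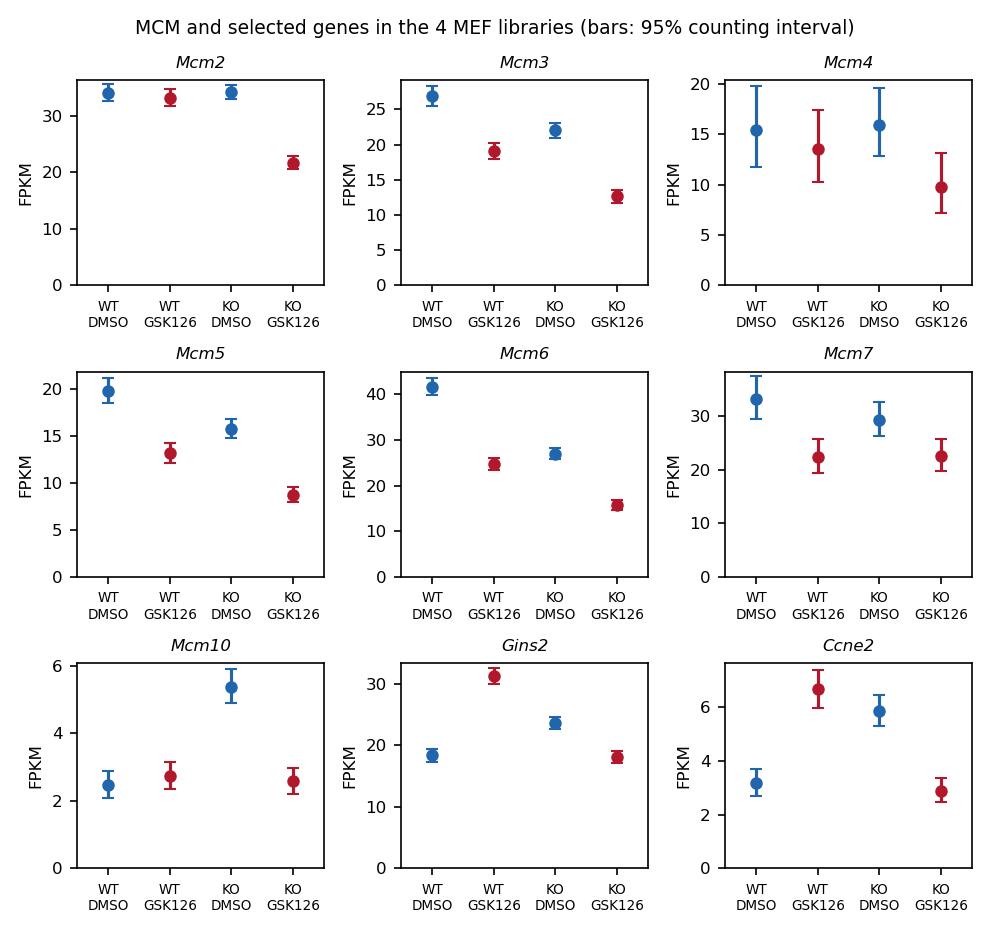
FPKM (y axis, from 0) of the 6 MCM2-7 genes, *Mcm10*, *Gins2* and *Ccne2* in the 4 MEF libraries (x axis), DMSO in blue and GSK126 in red; bars are exact 95% Poisson intervals of the reads on the shortest annotated coding transcript, so they are wide for *Mcm4* and *Mcm7*, and cover counting error only. *Mcm6* is lower with GSK126 in both genotypes, at 41.7 to 24.6 and 27.0 to 15.7 FPKM, while *Ccne2* moves up in WT and down in KO-labelled MEFs.

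Of the helicase activation genes, 2 of 6 were lower in both genotypes, *Cdc45* and *Gins1*. *Cdc45*, which binds the MCM ring to form the active helicase, was at 4.56 and 3.29 FPKM in WT and at 6.45 and 3.05 FPKM in KO-labelled MEFs (-0.37 and -0.88). *Gins1* was at 3.63 and 3.54 FPKM, and 4.94 and 3.93 FPKM. *Mcm10*, a replication initiation factor, was at 2.47 and 2.72 FPKM in WT but at 5.38 and 2.59 FPKM in KO-labelled MEFs (0.10 and -0.83), so that the KO-labelled DMSO library stood apart from the other 3. *Gins2*, another GINS subunit, was at 18.4 and 31.3 FPKM in WT and 23.6 and 18.1 FPKM in KO-labelled MEFs (0.74 and -0.37), the highest level being in WT with GSK126. *Gins4* was at 29.5 and 21.4 FPKM in WT and 21.7 and 23.6 FPKM in KO-labelled MEFs (-0.45 and 0.12), opposite to *Gins2*. The GINS subunits therefore did not move together across the 4 libraries. *Gins3* was at 0.90 to 1.48 FPKM in the 4 libraries, with 9 to 13 reads if all came from its shortest transcript, and nothing can be read from its ratios.

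The cyclins E, which activate CDK2 at the G1/S boundary, differed from each other. *Ccne2* (ENSMUSG00000028212.16, chr4:11191351-11204779) stood at 3.17 FPKM in WT MEFs under DMSO and 6.66 FPKM under GSK126, and at 5.87 and 2.89 FPKM in KO-labelled MEFs, with 154, 349, 407 and 166 estimated reads. Its ratios were 0.88 and -0.82, and no other gene of the set differed as much between the genotypes, by -1.70 (KO minus WT). Across the set, 8 of 40 genes had opposite signs in the genotypes, against 43.6% of all genes, and 2 (*Ccne2* and *Gins2*) had ratios at least 1 apart, against 6.75%. *Ccne1* was at 18.1 and 16.1 FPKM and at 14.98 and 15.5 FPKM, and *E2f1*, the E2F factor of the set, at 15.6 and 13.2 FPKM and at 15.8 and 14.01 FPKM. Both stayed within 1.5-fold.

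Origin licensing genes were low in MEFs except *Orc6*. *Orc1*, the ATPase subunit that leads origin recognition, was at 1.35 and 0.77 FPKM in WT and 1.73 and 0.91 FPKM in KO-labelled MEFs (-0.41 and -0.52). *Cdc6* was at 1.82 and 1.55 FPKM and at 1.54 and 1.14 FPKM, and *Cdt1*, the partner of CDC6 in loading MCM2-7, at 7.94 and 7.0 FPKM and at 7.04 and 6.74 FPKM. The pseudocount of 1 FPKM shrinks the ratios of genes at this level. *Orc6* was at 20.1 and 21.8 FPKM and at 25.1 and 17.1 FPKM (0.11 and -0.53).

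Polymerase genes were lower in both genotypes in 7 of 8 cases, the exception being *Pold2*, the accessory subunit of polymerase δ (0.29 and 0.03). *Prim1*, the catalytic primase subunit, was at 7.94 and 4.56 FPKM in WT and 6.80 and 4.51 FPKM in KO-labelled MEFs (-0.69 and -0.50). *Pold1*, the catalytic subunit of polymerase δ, was lower in WT, at 17.9 and 10.8 FPKM, and level in KO-labelled MEFs, at 13.8 and 13.7 FPKM. *Pole*, the catalytic subunit of polymerase ε, showed the reverse, at 3.80 and 3.55 FPKM in WT and 3.23 and 2.02 FPKM in KO-labelled MEFs. *Pola1* had ratios of -0.43 and -0.44 and *Prim2* of -0.30 and -0.40, so these differed little by genotype. *Pola2* (-0.14 and -0.50) and *Pole2* (-0.18 and -0.37) were lower in both without passing 1.5-fold.

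*Pcna*, the sliding clamp that holds polymerases on DNA, was at 33.9 and 28.7 FPKM in WT and 31.2 and 25.9 FPKM in KO-labelled MEFs (-0.23 and -0.26). Its loader subunit *Rfc3* was at 20.8 and 12.3 FPKM and at 13.6 and 9.89 FPKM (-0.71 and -0.42). *Rfc2* had ratios of -0.32 and -0.13 and *Rfc4* of -0.35 and -0.03, whereas *Rfc5* was higher in both, at 0.22 and 0.20. *Lig1*, the ligase that joins Okazaki fragments, was at 21.1 and 12.9 FPKM and at 15.1 and 11.0 FPKM (-0.67 and -0.42), and the flap endonuclease gene *Fen1* had ratios of -0.15 and -0.24. *Rpa1*, the large subunit of the single-strand binding protein, was at 49.7 FPKM in DMSO-treated WT MEFs and 32.7 to 36.0 FPKM in the other 3 libraries, and *Rpa2* had ratios of -0.09 and -0.41.

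All 4 genes of nucleotide supply were lower in both genotypes. *Tk1*, the S-phase thymidine kinase, was at 22.8 and 19.5 FPKM in WT and 20.9 and 11.8 FPKM in KO-labelled MEFs (-0.21 and -0.78). *Tyms*, which makes thymidylate, was at 42.0 and 28.6 FPKM in WT and 34.7 and 32.9 FPKM in KO-labelled MEFs (-0.54 and -0.07). The ribonucleotide reductase genes *Rrm1* (-0.46 and -0.22) and *Rrm2* (-0.47 and -0.33) were lower in both. *Tk1* and *Tyms* thus differed in which genotype had the larger ratio.

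Other genes of the pathway and of neighbouring steps were set beside the 40. Of 49 further replication genes, 35 were lower with GSK126 in WT and 45 in KO-labelled MEFs, with medians of -0.24 and -0.36, close to those of the 40 genes. Of these, 3 passed 1.5-fold downwards in both genotypes, the cyclin A2 gene *Ccna2* (-0.84 and -0.62), the topoisomerase gene *Top2a* (-0.93 and -0.72) and the origin firing gene *Mtbp* (-0.84 and -0.85), and 0 upwards. Of 14 mitosis genes, 10 were lower past 1.5-fold in WT and 12 in KO-labelled MEFs (medians -0.68 and -0.74), among them *Ccnb1* (-1.03 and -1.23), *Cdc20* (-0.74 and -0.96) and *Aurkb* (-0.71 and -1.05). Of 7 genes for CDK inhibitors, 4 were lower by any amount in WT and 3 in KO-labelled MEFs (medians -0.13 and 0.13). *Cdkn2b* (0.62 and 0.85) passed the limit upwards in both, and *Cdkn1b*, named after its values were seen, was at -0.37 in WT and passed it downwards in KO-labelled MEFs (-0.87). The 11 housekeeping genes had medians of -0.07 and 0.10. *Ezh2*, the gene of the inhibited enzyme, was at 18.8 and 11.3 FPKM in WT and 17.3 and 18.7 FPKM in KO-labelled MEFs. Summed fibroblast markers were also lower with GSK126, at 12371 and 9314 FPKM in WT and 9665 and 6326 FPKM in KO-labelled MEFs (*Col3a1* and *Pdgfra* past 1.5-fold in both). By gene, 7 of 10 fibroblast markers were lower in WT (median -0.20) and 9 of 10 in KO-labelled MEFs (-0.41). Summed macrophage markers were at 1152 and 1222 FPKM in WT and at 995 and 849 FPKM in KO-labelled MEFs. Of these markers, 3 of 5 were higher with GSK126 in each genotype, with medians of 0.08 in WT and 0.12 in KO-labelled MEFs. The part of the cell make-up in the replication genes' levels was not tested.

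**Figure D3:**
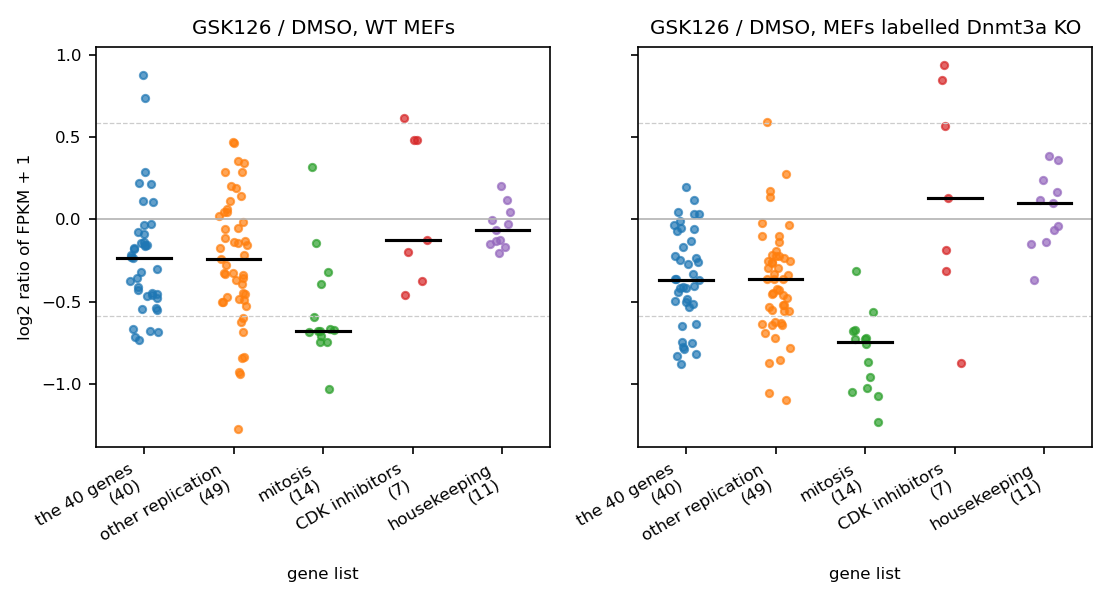
Log2 ratios of FPKM + 1 (y axis) for GSK126 against DMSO in WT MEFs (left) and in MEFs labelled *Dnmt3a* KO (right); points are genes, black lines medians, dashed lines 1.5-fold, and numbers in brackets count the genes of each list. The mitosis list sits lowest, at medians of -0.68 and -0.74, the 40 replication genes at -0.23 and -0.37, and the housekeeping list near 0.

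Between the genotypes, MEFs labelled *Dnmt3a* KO had 2 genes higher than WT with DMSO (*Mcm10* and *Ccne2*; background 11.0%) and 2 lower (*Mcm6* and *Rpa1*; 5.98%), with a median of -0.15. With GSK126, 0 were higher (6.80%) and 6 lower (7.64%): *Mcm2*, *Mcm6*, *Gins2*, *Pole*, *Tk1* and *Ccne2*, with a median of -0.13. With a pseudocount of 0.1 FPKM 10 were lower (10.1% of all genes), and at a 2-fold limit 0 (2.55%). These 2 comparisons and the 2 for GSK126 are made from the same 4 libraries, so *Ccne2* at 0.72 with DMSO and -0.98 with GSK126 gives the values above in another form. Past 1.5-fold, *Mcm6* was the only gene of the set lower under both treatments. All 5 macrophage markers were lower in the KO-labelled libraries under both treatments (medians -0.67 with DMSO and -0.65 with GSK126), and so were 8 of 10 fibroblast markers with DMSO (median -0.43) and 9 of 10 with GSK126 (-0.54). Their part in these differences was not tested.

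In 2i-MEFs, the *Dnmt3a* KO library had 3 genes higher than the *Dnmt3b* KO library (background 11.4%) and 0 lower (8.10%), with a median of 0.03. With a pseudocount of 0.1 FPKM 6 were higher (13.9% of all genes) and 1 lower (10.1%), and at a 2-fold limit 0 were higher (4.86%). The 3 were *Rfc2* at 46.7 against 28.1 FPKM, *Ccne2* at 8.002 against 4.49 FPKM and *Mcm10* at 4.17 against 2.28 FPKM. *Mcm10* rested on 150 and 69 reads on its shortest coding transcript, with intervals of 3.52 to 4.89 and 1.78 to 2.89 FPKM. *Cdt1* (8.77 and 13.4 FPKM) and *Mcm2* (42.1 and 51.6 FPKM) lay on the other side without passing 1.5-fold. Compared with the 2 MEF libraries with DMSO, both 2i-MEF libraries were above both MEF libraries for 10 genes (30.8% of all genes) and below both for 9 (26.5%), so neither count exceeded the background share of the set. *Orc1* stood out at 5.17 and 5.84 FPKM in 2i-MEFs against 0.77 to 1.73 FPKM in the 4 MEF libraries, and *Pola1* at 6.78 and 7.71 against 2.21 to 4.92 FPKM, while *Pcna* was lower, at 22.8 and 20.7 against 25.9 to 33.9 FPKM. *Pola1* lies on the X chromosome. Strain, sex and origin of the cells, genotype labels and macrophage marker RNA differ along with culture history and cannot be told apart.

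The largest differences in these genes lay between the tissues. Both liver libraries exceeded all 8 others for 39 of the 40 genes, where 25.9% of all 14150 genes averaging 1 FPKM or more did so. Both heart libraries exceeded all 6 fibroblast libraries for 36 genes (27.1% of all genes), and 35 genes had the order liver, heart, fibroblasts with no overlap (10.4%). The median level of the set, given here and below for WT before KO-labelled tissue, was 97.7 and 94.3 FPKM in liver, 34.97 and 30.2 FPKM in heart and 10.9 to 17.8 FPKM in the fibroblast libraries. The 40 genes took 0.544% and 0.503% of all summed FPKM in liver, 0.201% and 0.197% in heart and 0.0762% to 0.107% in fibroblasts.

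**Figure D4:**
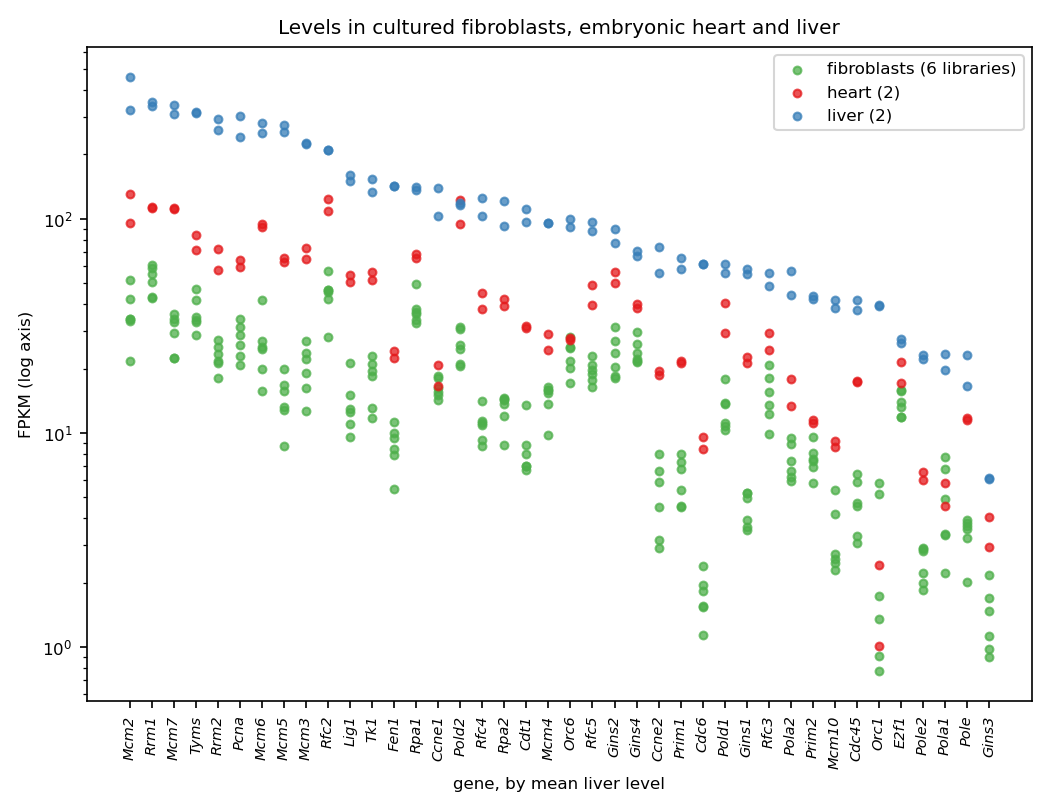
FPKM on a log axis for each of the 40 genes (x axis, ordered by mean liver level) in 6 fibroblast libraries (green), 2 heart (red) and 2 liver libraries (blue). The liver points lie above all others for 39 genes, the exception being *Pold2*, and the heart points lie between for most genes.

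**Figure D5:**
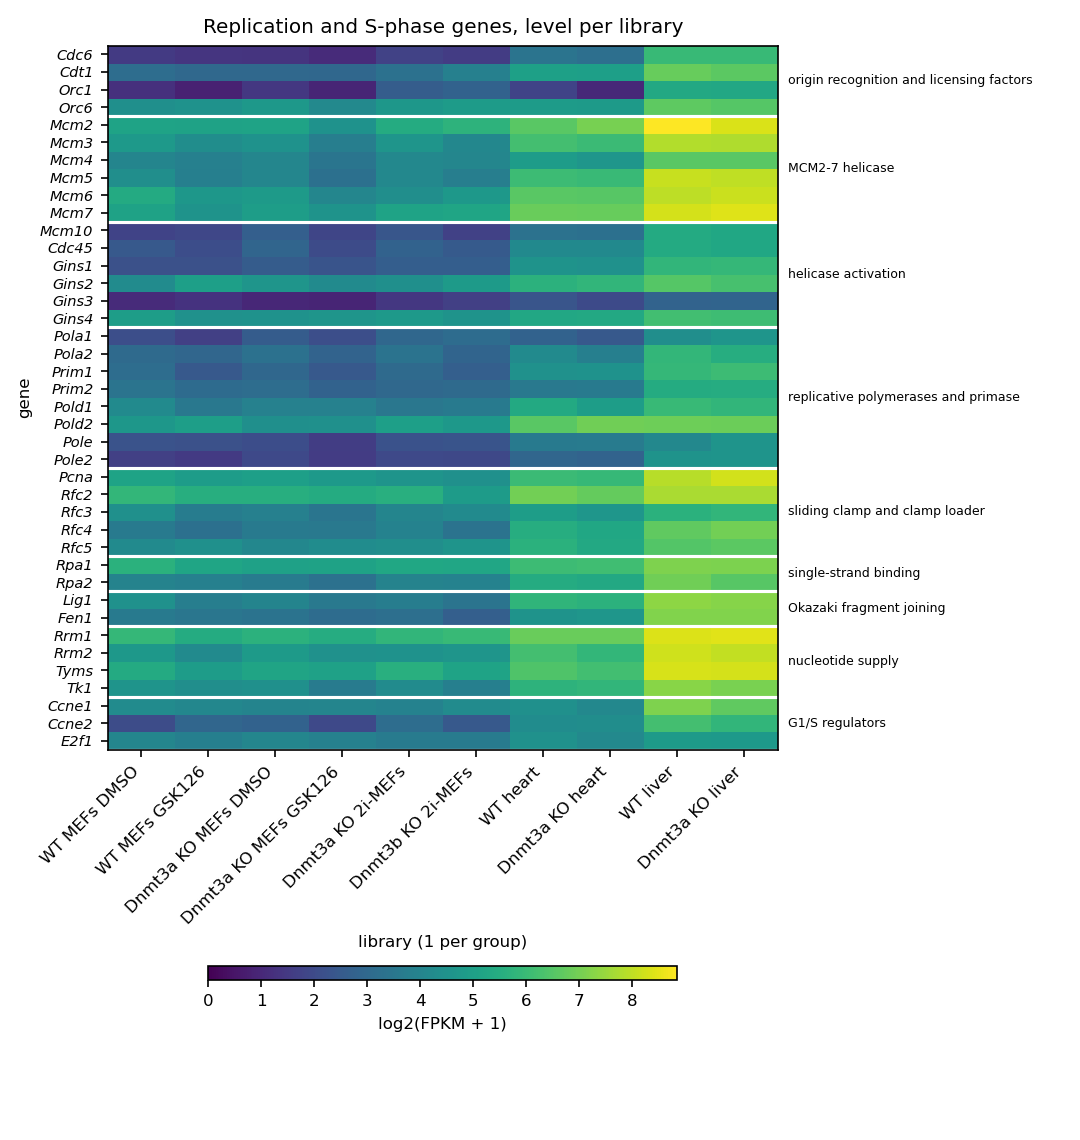
Level of each gene (rows, grouped by role) in each library (columns, 1 per group) as log2(FPKM + 1) from dark (low) to yellow (high). The liver columns are the brightest for nearly all rows, *Mcm2* being highest at 462 FPKM in WT liver.

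Liver over heart, the median ratio of FPKM was 2.99 in WT, with 1.25 (*Pold2*) as the lowest and 16.3 (*Orc1*) as the highest, and 3.06 in the tissues labelled *Dnmt3a* KO, and the median over all genes reaching 1 FPKM in both WT tissues was 1.11. Mean liver level over the fibroblast median gave 8.13 as the median of the 40 genes against 1.04 for all genes, and heart over fibroblasts gave 2.74 against 0.958. In a limma fit over the 4 heart and liver libraries with the genotype label as a block, 39 of the 40 genes were higher in liver and 0 lower at a Benjamini-Hochberg adjusted p under 0.05, against 32.9% of 13714 genes higher and 30.2% lower. The exception was *Pold2*, at a log2 difference of 0.13 (SE 0.14, limma adjusted p 0.467). The fit has 1 residual degree of freedom and a prior of 3.66 from the trend over all genes. Its p-values thus rest more on that shared variance than on the spread between these 2 pairs of libraries.

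The largest contrasts between liver and fibroblasts were in the licensing genes *Cdc6* and *Orc1*, at 36.4-fold and 25.5-fold, while *Orc6*, at 4.08-fold, lay under the median of the set. *Cdc6* was at 61.5 and 61.4 FPKM in liver, 9.57 and 8.38 FPKM in heart and 1.14 to 2.38 FPKM in fibroblasts. *Orc1* was at 39.6 and 39.0 FPKM in liver, but at 2.43 FPKM in WT heart and 1.01 FPKM in heart labelled KO, within the fibroblast range of 0.77 to 5.84 FPKM. *Orc6* in heart (27.8 and 27.3 FPKM) also overlapped the fibroblasts (17.1 to 27.9 FPKM), so of the 4 licensing genes only *Cdc6* and *Cdt1* separated all 3 sources. *Cdt1* was at 111 and 96.5 FPKM in liver, 31.5 and 30.9 FPKM in heart and 6.74 to 13.4 FPKM in fibroblasts.

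Of the MCM2-7 genes, 5 lay above the median level of the set in both liver libraries, and *Mcm4* lay close to it. *Mcm2* reached 462 FPKM in WT and 323 FPKM in KO-labelled liver, 95.5 and 131 FPKM in heart and 21.7 to 51.6 FPKM in fibroblasts. *Mcm5* had the widest gap of the 6 subunits, at 274 and 256 FPKM in liver, 65.5 and 62.8 FPKM in heart and 8.73 to 19.8 FPKM in fibroblasts, 18.3-fold from fibroblasts to liver. *Mcm4* had the smallest, at 95.96 and 96.2 FPKM in liver, 28.9 and 24.3 FPKM in heart and 9.80 to 16.4 FPKM in fibroblasts. Although the 6 proteins form a ring with 1 copy of each, their RNA levels in WT liver spread from 95.96 to 462 FPKM.

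Of nucleotide supply, *Rrm1* was at 338 and 354 FPKM in liver, 112 and 114 FPKM in heart and 42.5 to 61.2 FPKM in fibroblasts, and *Tyms* at 316 and 311, 83.9 and 71.7, and 28.6 to 47.2 FPKM. *Pcna* was at 240 and 303 FPKM in liver and 64.5 and 59.8 FPKM in heart. *Fen1* was at 142 FPKM in either liver library, 22.5 and 24.2 FPKM in heart and 5.48 to 11.2 FPKM in fibroblasts. All of these separated the 3 sources without overlap.

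A few genes departed from that order. *Pold2* was at 119 and 116 FPKM in liver and 95.1 and 122 FPKM in heart, so the tissues overlapped while both lay above fibroblasts (20.5 to 31.3 FPKM). *Ccne1* was at 140 and 103 FPKM in liver but 20.7 and 16.5 FPKM in heart, overlapping fibroblasts (14.3 to 18.4 FPKM), whereas *Ccne2* separated all 3, at 73.5 and 55.8, 18.7 and 19.4, and 2.89 to 8.002 FPKM. *Pola1* in heart (5.86 and 4.56 FPKM) also overlapped fibroblasts. Of the 40 genes *E2f1* differed least between liver and fibroblasts, at 27.5 and 26.3 FPKM in liver, 21.4 and 17.0 FPKM in heart and 11.8 to 15.8 FPKM in fibroblasts, a 1.98-fold liver level.

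Of the 49 other replication genes, 47 were above all other libraries in both liver libraries, as were 14 of 14 mitosis genes and 3 of 11 housekeeping genes. At this age the liver is the main site of blood formation. Erythroid markers (9 genes) summed to 96875 and 130571 FPKM in liver, 27074 and 18546 FPKM in heart and at most 4.4 FPKM in the fibroblast libraries, and 7 globin genes took 12.5% and 16.1% of all summed FPKM in liver. All of these moved with the tissue, and the part of the cell types in the levels was not tested.

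Between tissues labelled *Dnmt3a* KO and WT, few of the genes differed. In heart, 1 was lower (background 4.56%) and 0 higher (5.23%), with a median of -0.09. It was *Orc1*, at 2.43 FPKM (2.02 to 2.87) in WT and 1.01 FPKM (0.736 to 1.36) in heart labelled KO. In the same comparison 9 of 9 erythroid markers were lower, 6 past 1.5-fold (median -0.68), as were 7 of 8 hepatocyte markers, 5 past 1.5-fold (median -0.99), and *Orc1* was 16.3-fold and 38.5-fold higher in liver than in heart. The part of these markers in the *Orc1* difference was not tested. In liver 0 were lower (6.69%) and 0 higher (3.10%), with a median of -0.02. The range in liver was -0.51 (*Mcm2*) to 0.46 (*Pole*). *Mcm2* was higher in heart labelled KO (0.46) and lower in liver labelled KO, without passing 1.5-fold in either. In the liver labelled KO, 6 of 8 hepatocyte markers (median -0.41), 5 of 5 macrophage (-0.63), 10 of 10 fibroblast (-0.39) and 5 of 5 skeletal muscle markers (-2.67) were lower than in WT, and erythroid markers were split, with 5 of 9 higher (median 0.20). The replication genes summed to 5229 FPKM in WT liver and 5047 FPKM in KO-labelled liver.

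Over the 6 fibroblast libraries, Pearson's r of log2(FPKM + 1) between each gene and the mean of the other 39 ranged from -0.14 (*Rfc5*) to 0.96 (*Mcm4*). It was over 0.8 for *Mcm3*, *Mcm4*, *Mcm5*, *Mcm7*, *Cdc45*, *Cdc6*, *Prim1*, *Pole*, *Rpa2* and *Rfc3*, and under 0.1 for *Gins2*, *Pcna*, *Rfc5*, *Pold1*, *Fen1*, *Ccne1* and *E2f1*. The points share libraries and depth, and these values are a description over few libraries.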

How the data were processed

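RNA-seq libraries (TruSeq stranded mRNA, single reads of 75 bases) were trimmed by the authors with cutadapt, mapped to mm10 with TopHat and Bowtie2 using GENCODE M15, filtered for a MAPQ of at least 20 and quantified with Cufflinks. The submitters' processing notes give cutadapt 1.9.1, TopHat2 2.1.0, Bowtie2 2.2.5 and Cufflinks 2.2.1, while the paper's methods give other versions of the first 3. The values deposited by the authors are FPKM per gene and library, without read counts. The strand setting and any scaling between libraries are not given in the sources used here.

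Samples were grouped by their GEO labels, with 1 library per group; the 16 genomic DNA samples of the series were not used here. Rows of the same symbol were summed (155 repeated rows, none of the 40 genes). Ratios were log2 of FPKM + 1, without a filter for the 40 genes, and a 1.5-fold limit. Background shares used genes averaging 1 FPKM or more. Depth was estimated from low FPKM values of genes with 1 transcript of at least 1500 bases, which are multiples of 1 read; 96.4% to 98.1% lay within 0.1 of a whole read, against 20% by chance. Exact Poisson intervals (95%) use the shortest coding transcript (GENCODE M21, the same build) and cover counting error only, since the reads carry no molecular identifiers; all but *Gins4* have several transcripts. The ratio counts, the depth estimate and the limma fit were tested on simulated data. The limma simulation used a change larger than any GSK126 ratio of the 40 genes, so it does not show whether smaller changes would be found. Alternatives were a pseudocount of 0.1, ratios centred on all genes, a 2-fold limit, the highest row of a symbol, and filters at 10 FPKM or none. Levels scaled to the same sum, ratios without a pseudocount and 2 limma fits (log2(FPKM + 1), empirical Bayes with trend, genotype label as block, genes averaging 1 FPKM or more) were added after seeing the data.

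The 40 genes and the lists were chosen with earlier results of these data known. All 40 genes could be named; of other lists, genes past 1.5-fold in the same direction in both GSK126 comparisons were named, at most 3 per list and direction, plus *Dnmt3a* and *Ezh2*; *Cdkn1b* and the genes of the closing observations fall outside this and were chosen after their values were seen. Analyses used Python 3.11.15, numpy 2.4.6, pandas 2.3.3, scipy 1.17.1 matplotlib 3.10.9, R 4.3.3 and limma 3.58.1.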

Additional observations from a re-analysis of the deposited data

Results flagged for a closer look

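For 3 genes, the GSK126 ratios of the 2 genotypes had opposite signs and at least 1 passed 1.5-fold. The difference of the log2 ratios (KO-labelled minus WT) was -1.70 for *Ccne2*, -1.11 for *Gins2* and -0.93 for *Mcm10*. With 1 library per group, these differences were not tested. The same numbers are the difference between the genotype ratios with GSK126 and with DMSO, since both use the same 4 libraries. No gene of the set met the same condition between heart and liver.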

How the results depend on the processing

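With 1 library per group no replicate could be left out, and pairs exist only across the genotype labels. With the genotype label as a block (limma, adjusted p under 0.05, added after seeing the data), 0 genes in place of 1 were lower with GSK126 over both genotypes, and 39 genes were higher in liver than in heart, where 39 were in both genotypes by level alone. With a pseudocount of 0.1, 2 genes in place of 1 were lower past 1.5-fold in both genotypes (2.18% of all genes in place of 1.28%). With no pseudocount 4 genes were (2.41%). With a 2-fold limit 0 genes of the set were higher with GSK126 in WT MEFs (1.67% of all genes). Lower were 0 in WT (1.33%) and 0 in KO-labelled MEFs (2.84%). The same limit gave 0 higher (3.82% of all genes) and 0 lower (1.81%) between the genotypes with DMSO, and 0 lower with GSK126 (2.55%). It also gave 0 higher in 2i-MEFs (4.86%) and 0 lower in heart (1.40%). With a pseudocount of 0.1, 10 in place of 6 genes were lower in KO-labelled than in WT MEFs with GSK126, and in 2i-MEFs 6 in place of 3 were higher and 1 in place of 0 lower in *Dnmt3a* KO. Centred on all genes, the liver median was 0.055 in place of -0.02, so its sign is not settled. Other medians kept their direction and stayed within their 95% order-statistic interval under the pseudocount, the centring and the highest row of a symbol. That interval spans the genes of the set in 1 library pair, and these genes are not replicates. It held 0 for KO-labelled against WT liver (-0.097 to 0.021) and MEFs with DMSO (-0.23 to 0.0057), and for 2i-MEFs (-0.097 to 0.278). Scaling each library to the same summed FPKM gave medians of 2.74 for liver over heart, 5.85 for liver over fibroblasts and 2.203 for heart over fibroblasts, with 39 genes highest in liver and 32 in the order of liver, heart, fibroblasts. The share of all genes past 1.5-fold in WT MEFs with GSK126 was 10.1% with a mean of at least 1 FPKM, 6.02% with at least 10 and 3.43% without a filter. Single libraries, genes under 2 FPKM and genes with several transcripts limit the precision.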

Other observations

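Among 17 genes of the E2F and RB families and the G1 cyclins with their kinases, 9 were higher in both liver libraries than in the other 8. Of all genes, 25.9% were. The genes named in what follows were chosen after their values were seen. *E2f2*, an activating E2F gene, was at 141 and 188 FPKM in liver, 6.02 and 4.01 FPKM in heart and 0.64 to 1.89 FPKM in fibroblasts. *E2f4*, a gene for an E2F of repressor complexes, was at 224 and 197 FPKM in liver, 24.3 and 23.7 FPKM in heart and 18.3 to 27.9 FPKM in fibroblasts. *E2f1* of the replication set was at 26.3 to 27.5 FPKM in liver. *Cdkn2a*, which encodes the INK4A and ARF inhibitors, was listed at 0 in both liver libraries and was at 66.8 to 192 FPKM in fibroblasts.

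Some genes outside the set, also chosen after their values were seen, shared the order of *Ccne2* in the 4 MEF libraries. In it, WT plus GSK126 and KO-labelled plus DMSO stood above the other 2. The share of all genes with this order was not counted, but 43.6% had opposite directions with GSK126 in the genotypes. *Timeless*, a gene of fork protection, was at 3.16 and 4.27 FPKM in WT with DMSO and GSK126 and at 6.87 and 2.79 FPKM in KO-labelled MEFs. *Mcmbp*, whose protein binds MCM subunits, was at 21.95 and 30.6 FPKM and at 31.1 and 22.6 FPKM. *Eed*, a PRC2 subunit gene, was at 19.3 and 34.4 FPKM and at 39.2 and 23.5 FPKM. With 1 library per group, the order of 4 values has no replicate check.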
